A study of Mus musculus with 6 samples.

Results

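The 10 genes described here encode factors that carry the ribosome along an mRNA, proteins that bind the cap-binding factor, and translated products whose mRNAs are textbook members of the TOP class. They were chosen by name: Eef1a1, Eef1b2, Eef1d, Eef1g, Eef2, Eif5a, Eif4ebp1, Eif4ebp2, Tpt1 and Naca, which are 10 of the 20673 genes in the deposited tables. All 10 passed the filter on low counts. RNA was sequenced from the livers of 3 mice on a regular diet (RD) and 3 mice that ate a high-cholesterol diet (HCD) for 3 days. The mice were C57BL/6J from Jackson Laboratory and the labels name no other treatment. The HCD held cocoa butter, cholesterol and sodium cholate, whereas the RD was a standard Teklad rodent chow, so that the diets differ in more than cholesterol. The study used both male and female mice, and the labels give no sex for a liver.

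In each round of elongation, eEF1A brings an aminoacyl-tRNA to the ribosome, the eEF1B complex recharges eEF1A with GTP, and eEF2 moves the ribosome on by 1 codon. The genes for these factors, like those for ribosomal proteins, are transcribed into TOP mRNAs, which begin with a C followed by a run of pyrimidines right after the cap. The kinase mTORC1 controls how well such mRNAs are translated, through LARP1 and through the 4E-BP proteins, which hold the cap-binding protein eIF4E away from the initiation complex. In the liver, mTORC1 responds to feeding, insulin and amino acids. RNA sequencing of whole tissue measures the level of these mRNAs and not their translation.

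Naca rose on HCD, and it was the only 1 of the 10 genes past an adjusted p of 0.05 in edgeR's quasi-likelihood test, as were 3.27% of the 13105 genes tested. Tpt1 was higher by nearly as much and was past the threshold with DESeq2 but not with edgeR. The core elongation factors Eef1a1, Eef1g and Eif5a had log2 fold changes of HCD over RD within 0.05 of 0. Eef2 and Eif4ebp2 were lower in every HCD liver than in every RD liver, Eef1b2 and Eef1d were higher in every one, and none of these 4 was past the threshold with either tool.

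The first stretch of an mRNA shows what the TOP label rests on. A TOP-like run was searched as a C followed by at least 4 bases that are each C or T, on the transcribed strand only. Of the 21877 protein-coding genes of the GENCODE M21 annotation of GRCm38, 5.12% had a transcript that begins with such a run, and 2 of the 10 genes were among them, of which Eef1d is shown. The following 30-base stretches, from 5 of the genes, come from annotated transcripts of GRCm38, are read 5′ to 3′, and have the first run in capitals; a later run, as in Tpt1, is left in lower case. For each gene the coding transcript with the earliest run was taken, so that a gene with many annotated transcripts, such as Eef1d with 15, had more chances of an early run than Eef1g with 1. The stretches are shown because the position of the run relative to the annotated start differs between the genes. Cap sites were not measured, so an annotated start need not be where an mRNA begins in these livers.
Eef1d: CTCTCCTTTgcagtcctgagctcgcagttc
Naca: cgctcgttCTCTTTCTgccgccatcttggt
Tpt1: cgcgtcggCCTTTTCCgcccgctcccccct
Eef1g: tgcgtatgCCTTTTatgccgtcctcgcttt
Eef1a1: tggacgttCTTTTTCgcaacgggtttgccg

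These stretches lie at chr15:75909277-75909306 on the minus strand for Eef1d, chr10:128035637-128035666 on the plus strand for Naca and chr14:75845322-75845351 on the plus strand for Tpt1. The others are at chr19:8967076-8967105 on the plus strand for Eef1g and chr9:78481650-78481679 on the minus strand for Eef1a1. Among the genes shown, the run starts at base 1 of the transcript so chosen in Eef1d, at base 11 in Naca, 29 in Tpt1, 44 in Eef1g and 54 in Eef1a1. A run starting within the first 100 bases is common, with 87.68% of coding genes holding one, so that its presence in 8 of the 10 genes does not set them apart. Eif4ebp1 and Eif4ebp2 are the 2 genes without one. In the RefSeq promoter table of GRCm38.p6, with 32851 promoters, 2.51% have a run exactly at the annotated start, and none of the 7 listed genes (all but Eef1d, Eef1g and Eif4ebp1) is among them. With a run that begins up to 5 bases before or after the start the share is 18.35%, and Eef1a1 and Naca are among them through runs that begin before the annotated start, outside the annotated mRNA. Both searches depend on where the annotation puts the start. For Naca it is at position 128035346 in RefSeq, whereas the gene begins at 128035575 in M21. The searches therefore do not show whether the mRNAs of these livers begin with a run. For contrast, the first 30 transcribed bases of Eif4ebp2 at its RefSeq start, from position 61452669 of chromosome 10 on the minus strand, hold no run.
Eif4ebp2: cgaccgggcgagagcaggcgagttgagagc

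A few facts of the whole series bear on these values. The libraries held 13771630 to 23129576 counts on genes, and 3 counts, the most that a count of 0 allows, equal 0.130 to 0.218 CPM (counts scaled to a common library total) on the library totals before TMM scaling, whereas all other CPM are TMM-scaled. Counts of the 10 genes ranged from 495 to 99731 in a liver, so counting error is small for the abundant genes and a larger part of the spread for Eif4ebp1 and Eef1d, which had the fewest counts. The edgeR, DESeq2 and limma p-values set a difference against the spread between these 6 livers, which the tools estimate partly from other genes. HCD replicate 1 stood apart: it alone had counts of Xist, a transcript of female cells (5032), and it alone had 0 counts summed over 4 Y-linked genes, which reached 1075 to 2666 elsewhere, so log2 fold changes without that liver are given beside those of the 10 genes and of the partner genes described in full. The hepatocyte markers summed to 96906 to 125095 CPM on RD and 102355 to 144453 on HCD, with Alb the most abundant, and none of the 9 tested was called with edgeR, where 1 was higher with an unadjusted p of at most 0.05 and DESeq2 called 1 higher, beside 11.1% and 3.88% of all genes tested. All libraries carried the RNA of whole tissue, in which fewer cells of a type and less RNA per cell cannot be told apart.

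The levels of the 10 genes per length spanned a wide range. In FPKM (fragments per kilobase of summed exons and per library total), the mean over the 6 livers was 2408.7 for Eef1a1, which ranked 44th of all genes, 679 for Eef2 (rank 118), 539 for Tpt1 (rank 140) and 214 for Eif5a (rank 340). Eef1a1 alone took 0.358% to 0.431% of the counts of a library. Below these came Eef1g at 101 FPKM, Eif4ebp2 at 83.4, Eef1b2 at 82.8, Naca at 35.9, Eif4ebp1 at 24.9 and Eef1d at 17.5. Neighbours in this order that did not separate in every liver were Eef2 and Tpt1 (Eef2 higher in 5 of 6 livers), Eif4ebp2 and Eef1b2 (3 of 6), and Naca and Eif4ebp1 (5 of 6). The order depends on the exon length by which the authors divided. Naca has summed exons of 6805 bases because a long coding transcript of 6745 bases is annotated beside one of 885, and its mean FPKM would be 276 if every read came from the short one. For Eef1d, with 15 coding transcripts of 350 to 2842 bases and summed exons of 6488, FPKM would be 40.0 at the longest transcript.

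**Figure D1:**
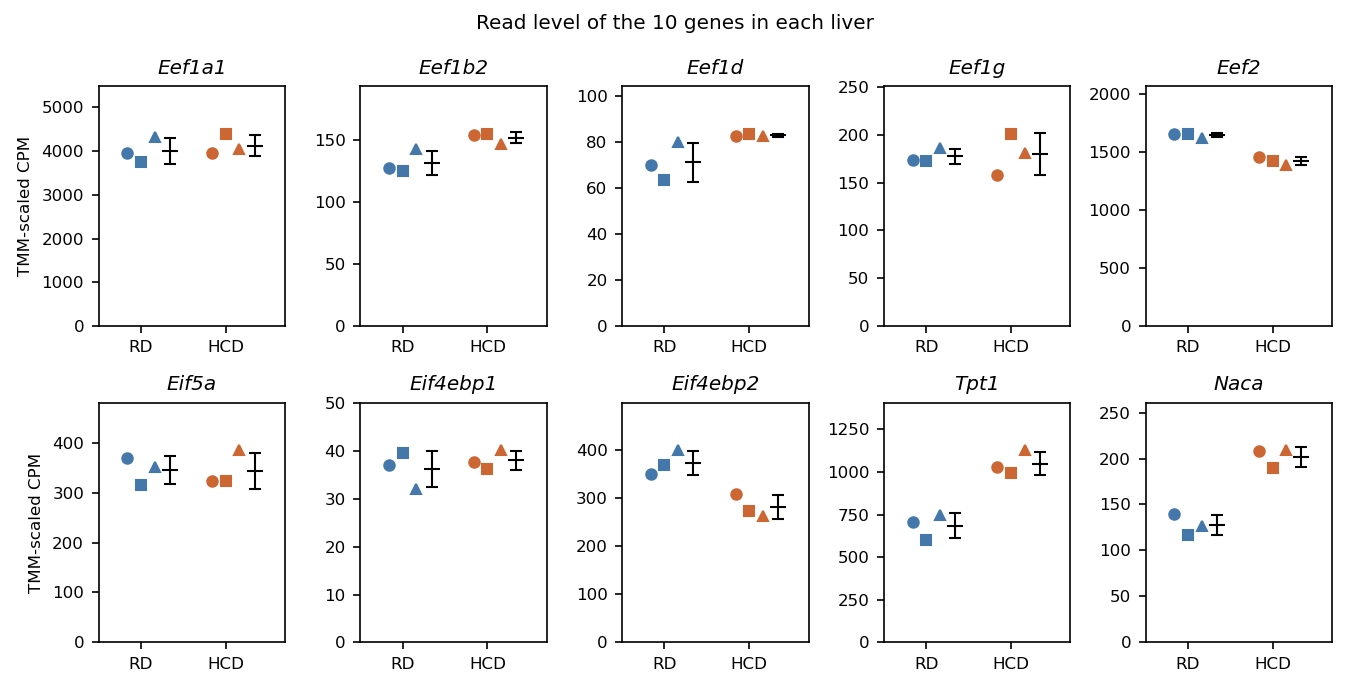
Read level of each of the 10 genes, as CPM scaled with edgeR's TMM factors (vertical axis, from 0), in 3 RD livers (blue) and 3 HCD livers (orange). Circles, squares and triangles are replicates 1, 2 and 3, and the black marks are the mean and SD of each diet. The HCD livers lie above all RD livers for Tpt1 and Naca and below them for Eef2 and Eif4ebp2.

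Eef1a1 encodes eEF1A, the carrier of aminoacyl-tRNA. Here and throughout, the 3 values of a diet are those of replicates 1, 2 and 3 in that order. Eef1a1 (ENSMUSG00000037742, chromosome 9 from 78478449 to 78489151, minus strand) was at 3953, 3745 and 4325 CPM on RD and at 3949, 4394 and 4044 CPM on HCD. The diets overlapped, with the lowest and the second highest liver both on RD. The means were 4008 ± 294 CPM (SD, n = 3) on RD and 4129 ± 234 on HCD, and the log2 fold change was 0.045 (standard error 0.17, 95% confidence interval -0.34 to 0.43, adjusted p = 0.906 in edgeR). A difference of more than 1.34-fold upward is outside that interval. The sign turned with library sizes in place of TMM (-0.018), and without HCD replicate 1 the value was 0.074. Its 6 annotated processed copies, with at least 90% identity over 200 aligned bases, held 0.324% to 0.700% of the summed counts, most of them on Gm13456.

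The eEF1B complex exchanges the guanine nucleotide of eEF1A, and its alpha, delta and gamma subunits are encoded by Eef1b2, Eef1d and Eef1g. Eef1b2 (ENSMUSG00000025967, chromosome 1 from 63176825 to 63180486, plus strand) was at 128, 125 and 143 CPM on RD and at 154, 155 and 147 CPM on HCD. The HCD livers were all above the RD livers, the nearest pair being RD replicate 3 and HCD replicate 3. The log2 fold change was 0.21 (standard error 0.12, 95% interval -0.073 to 0.49, adjusted p = 0.374 in edgeR), and 0.20 without HCD replicate 1. Its exons overlap those of Ndufs1 on the opposite strand, and the sources used here do not give the strandedness of the libraries, so reads of the pair may be mixed.

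Eef1d encodes the delta subunit, a second exchange factor. Eef1d (ENSMUSG00000055762, chromosome 15 from 75894205 to 75909556, minus strand) was at 69.8, 63.4 and 80.1 CPM on RD and at 82.6, 83.5 and 82.4 CPM on HCD. The diets did not overlap. The nearest pair, RD replicate 3 at 80.1 CPM and HCD replicate 3 at 82.4 CPM, lay within counting error of each other. The coefficient of variation was 11.9% on RD and 0.669% on HCD. At 1018 to 1644 counts per HCD liver, counting error alone exceeds 0.669%, so the closeness of these livers says little about their spread. The log2 fold change was 0.22 (standard error 0.13, 95% interval -0.068 to 0.51, adjusted p = 0.359 in edgeR), and 0.22 without HCD replicate 1. Exons of Eef1d overlap those of Naprt, a gene of the same strand with a mean of 2360 counts. Transcripts of the 2 genes align over 277 bases, so reads there could be counted for either gene or for neither. When a trend with the length of the first-numbered GENCODE transcript was removed, as described below, the log2 fold changes were 0.026 for Eef1b2 and 0.044 for Eef1d.

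Eef1g encodes the gamma subunit, which holds the complex together. Eef1g (ENSMUSG00000071644, chromosome 19 from 8967041 to 8978479, plus strand) was at 173, 173 and 187 CPM on RD and at 158, 200.8 and 181 CPM on HCD. The diets overlapped, and the lowest and the highest liver were both on HCD. The log2 fold change was 0.020 (standard error 0.14, 95% interval -0.30 to 0.34, adjusted p = 0.95 in edgeR), with the opposite sign for library sizes alone (-0.048), and it was 0.11 without HCD replicate 1. The most abundant of its 2 annotated copies is Gm4366, and both together held 3.58% to 5.84% of the summed counts.

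Eef2 encodes eEF2, the GTPase of translocation. Eef2 (ENSMUSG00000034994, chromosome 10 from 81176631 to 81182498, plus strand) was at 1650, 1653 and 1622 CPM on RD and at 1453, 1423 and 1384 CPM on HCD. All HCD livers were below all RD livers, and the livers of 1 diet differed little (coefficient of variation 1.03% on RD and 2.45% on HCD). The means were 1642 ± 16.8 CPM (SD, n = 3) on RD and 1420 ± 34.8 on HCD, with a log2 fold change of -0.21 (standard error 0.15, 95% interval -0.54 to 0.13). It was not past the threshold (adjusted p = 0.457 with edgeR and 0.413 with DESeq2), and the exact two-sided permutation test gave p = 0.1, the smallest that 3 livers against 3 allow. The standard error in edgeR draws on a spread shared with other genes and not on these 6 values alone. With 1 liver left out the log2 fold change was between -0.23 and -0.19, with -0.23 without HCD replicate 1.

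Eif5a encodes eIF5A, the hypusine-bearing factor that relieves ribosomes stalled at difficult peptide bonds. Eif5a (ENSMUSG00000078812, chromosome 11 from 69916714 to 69921958, minus strand) was at 369, 314 and 351 CPM on RD and at 322, 323 and 384 CPM on HCD. The diets overlapped throughout, with the highest liver on HCD and the lowest on RD. The log2 fold change was -0.0038 (standard error 0.15, 95% interval -0.34 to 0.33, adjusted p = 0.990 in edgeR), and its sign changed with several settings, among them upper-quartile scaling (0.029) and the fit without HCD replicate 1 (0.037).

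**Figure D2:**
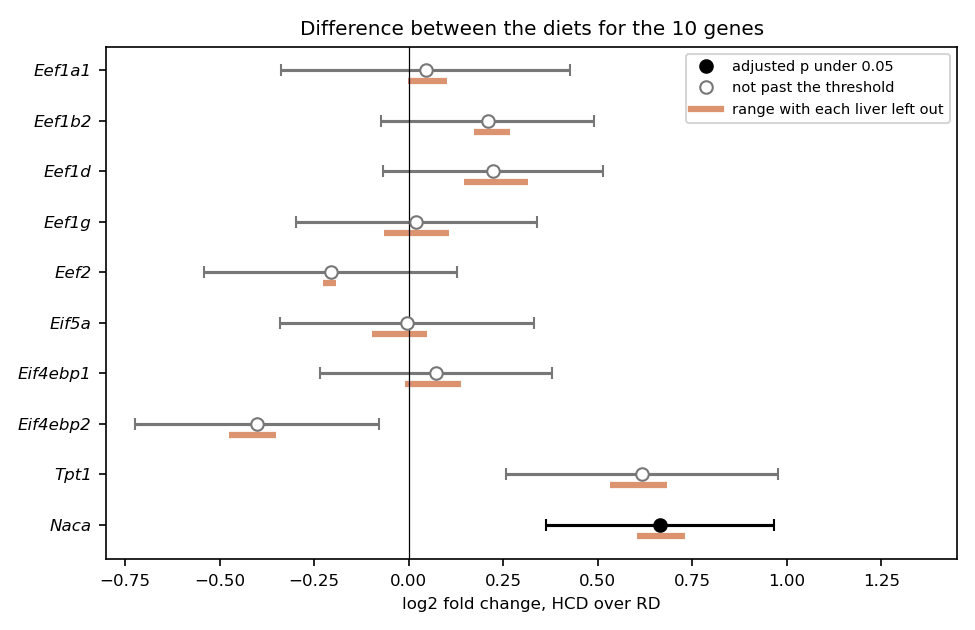
Log2 fold change of HCD over RD for each of the 10 genes from edgeR (horizontal axis), with 95% confidence intervals as whiskers and, in orange below each, the range when each liver is left out in turn. Filled points are past an adjusted p of 0.05, which holds for Naca alone; the Tpt1 interval of 0.26 to 0.98 and the Eif4ebp2 interval of -0.72 to -0.079 also leave out 0.

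The 4E-BP proteins 4E-BP1 and 4E-BP2 bind eIF4E until mTORC1 phosphorylates them. Eif4ebp1 (ENSMUSG00000031490, chromosome 8 from 27260329 to 27276674, plus strand) was at 37.0, 39.5 and 32.1 CPM on RD and at 37.7, 36.2 and 40.1 CPM on HCD. The diets overlapped, and the log2 fold change was 0.072 (standard error 0.14, 95% interval -0.24 to 0.38, adjusted p = 0.800 in edgeR), and 0.075 without HCD replicate 1.

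Eif4ebp2 (ENSMUSG00000020091, chromosome 10 from 61428491 to 61452661, minus strand) was at 351, 368 and 399 CPM on RD and at 309, 272 and 263 CPM on HCD. Every HCD liver was below every RD liver. The means were 373 ± 24.3 CPM (SD, n = 3) on RD and 282 ± 24.2 on HCD, and its log2 fold change was -0.40 (standard error 0.14, 95% interval -0.72 to -0.079). The unadjusted p was 0.0204 in edgeR, and the adjusted p was 0.158 with edgeR and 0.0829 with DESeq2, so that the difference was not past the threshold. Without HCD replicate 1 the log2 fold change was -0.48 (adjusted p = 0.115 in edgeR), and after the correction by the length of the first-numbered transcript it was -0.26 (adjusted p = 0.360 in edgeR). Within a liver, the ratio of Eif4ebp2 to Eif4ebp1 in FPKM was 3.60, 3.54 and 4.71 on RD and 3.11, 2.86 and 2.50 on HCD. The ratios of the diets did not overlap (log2 difference -0.48, exact two-sided permutation test, p = 0.1, or 0.15 adjusted over the 12 ratios computed). The remaining gene of this kind, Eif4ebp3, was low, at 1.40 ± 0.313 CPM on RD and 0.678 ± 0.111 on HCD (log2 fold change -1.04, standard error 0.50, adjusted p = 0.275 in edgeR).

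Tpt1 encodes the translationally controlled tumor protein TCTP, whose mRNA is a long-studied example of growth-dependent translation. Tpt1 (ENSMUSG00000060126, chromosome 14 from 75845093 to 75848525, plus strand) was at 706, 603 and 748 CPM on RD and at 1028, 994 and 1127 CPM on HCD. The lowest HCD liver was well above the highest RD liver. The means were 686 ± 74.7 CPM (SD, n = 3) on RD and 1050 ± 69.0 on HCD, and its log2 fold change was 0.62 (standard error 0.16, 95% interval 0.26 to 0.98) or 1.53-fold. Tpt1 was not past the threshold in edgeR (adjusted p = 0.0757) and was in DESeq2 (adjusted p = 0.00347), where 6.97% of genes were (3.88% higher). Without HCD replicate 1 its log2 fold change was 0.63 (adjusted p = 0.0825 in edgeR). The 3 annotated copies, of which Tpt1-ps3 is the most abundant, held 4.79% to 6.33% of the summed counts, and with them added the log2 fold change was 0.61 (adjusted p = 0.0795 in edgeR).

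Naca encodes the alpha subunit of the nascent polypeptide-associated complex, which meets new proteins at the ribosome exit and keeps them from the wrong membrane. Naca (ENSMUSG00000061315, chromosome 10 from 128035575 to 128048637, plus strand) was at 139, 117 and 127 CPM on RD and at 208, 190 and 209 CPM on HCD. All HCD livers were above all RD livers, with a gap wider than the range of either diet. The means were 128 ± 11.2 CPM (SD, n = 3) on RD and 202 ± 10.9 on HCD, and Naca rose by 0.66 on the log2 scale (standard error 0.13, 95% interval 0.36 to 0.97) or 1.58-fold. The adjusted p was 0.0376 with edgeR and 0.0016 with DESeq2, and the exact two-sided permutation test gave p = 0.1.

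The Naca call was close to its threshold. Leaving out 1 liver ended it in 5 of 6 cases, with adjusted p from edgeR of 0.130, 0.178 and 0.1002 when an RD liver (replicate 1, 2 or 3) was dropped and of 0.0583 and 0.0953 when HCD replicate 1 or 3 was, while the log2 fold change stayed between 0.60 and 0.73 (0.64 without HCD replicate 1). Without HCD replicate 2 it was 0.0487. The call also ended with library sizes alone and with the replicate number as a block (adjusted p = 0.0770 and 0.0716 in edgeR), and with the length correction by the first-numbered transcript given further on. Reads of Naca can also be shared with 2 annotated copies that held 12.2% to 17.1% of the summed counts, nearly all on Gm6863, and with these added the log2 fold change was 0.61 (adjusted p = 0.0482 in edgeR).

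The beta subunit of the same complex is encoded by Btf3, which also rose. Btf3 was at 92.5, 84.8 and 94.97 CPM on RD and at 144, 134 and 145 CPM on HCD, and it rose by 0.64 on the log2 scale (standard error 0.12), with an adjusted p of 0.0316 in edgeR and 0.00238 in DESeq2. The ratio of Naca to Btf3 in FPKM was 0.385, 0.352 and 0.342 on RD and 0.371, 0.360 and 0.368 on HCD. These ratios overlapped between the diets, with a log2 difference of 0.028 (exact two-sided permutation test, p = 0.6, or 0.72 adjusted over 12 ratios). The Btf3 call was lost when RD replicate 1, 2 or 3 was dropped (adjusted p = 0.146, 0.1603 and 0.0802 in edgeR), or HCD replicate 1 or 3 (log2 fold change 0.62 and 0.61, adjusted p = 0.0518 and 0.0797 in edgeR), and after the length correction by summed exons (log2 fold change 0.51, adjusted p = 0.0815 in edgeR). It was lost as well with library sizes alone, the replicate number as a block and the correction by the first-numbered transcript (adjusted p = 0.0686, 0.0676 and 0.0803 in edgeR). Its 3 annotated copies held 1.32% to 3.36% of the summed counts, most of them on Gm3531. Of the 4 nascent chain genes tested, all had a log2 fold change above 0, as had 50.7% of all genes tested, and Btf3 alone was called, beside 3.27% of all genes tested.

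Ratios within a liver do not depend on the scaling of libraries, and 12 were computed after the values had been seen. Tpt1 over Eef1a1 was 0.187, 0.169 and 0.181 on RD and 0.273, 0.237 and 0.292 on HCD, with no overlap and a log2 difference of 0.57. Naca over Eef1a1 differed by 0.62 and Eef2 over Eef1a1 by -0.25 on the log2 scale, also with no overlap. Eef1g and Eif5a over Eef1a1 overlapped, with log2 differences of -0.031 and -0.051. The ratio of Tpt1 to Eef2, the pair furthest apart among these, went from 0.584 ± 0.0683 (SD, n = 3) on RD to 1.03 ± 0.0898 on HCD, a log2 difference of 0.83. Each ratio without overlap reached p = 0.1 in the exact two-sided permutation test (0.15 adjusted over the 12), which is the smallest p possible, so none was past 0.05.

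**Figure D3:**
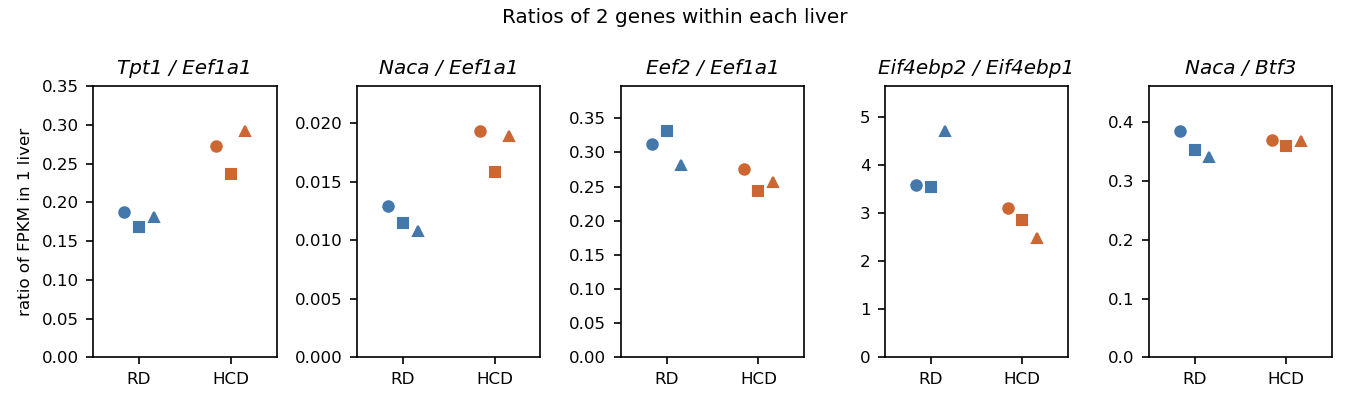
Ratio of the FPKM of 2 genes in the same liver (vertical axes, from 0) for 5 of the 12 ratios, on RD livers in blue, HCD livers in orange, and circles, squares and triangles for replicates 1, 2 and 3. Tpt1 and Naca over Eef1a1 are higher in every HCD liver, Eef2 over Eef1a1 and Eif4ebp2 over Eif4ebp1 are lower in every one, and Naca over Btf3 overlaps between the diets.

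Counted over the 10 genes, 7 had a log2 fold change above 0 and 3 below, with a median of 0.058 beside 0.0074 over all genes tested. After the length correction by summed exons, described below, that median was -0.025. With an unadjusted p of at most 0.05 in edgeR, 2 were higher (Naca and Tpt1) and 1 lower (Eif4ebp2), beside 11.1% and 9.81% of all genes (20.9% in both directions together). The diets did not overlap for 6 of them, 4 higher and 2 lower, as for 27.6% of all genes tested. By role, the 6 elongation factors had a median of 0.033 with none called, whereas both TOP products outside elongation, Naca and Tpt1, were at 0.66 and 0.62.

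The differences of all genes varied with gene length. The slope of a liver's log2 deviation on log2 summed exon length was 0.042, 0.067 and 0.049 on RD and -0.012, -0.058 and -0.088 on HCD, so that shorter genes were relatively higher in HCD libraries. Removing this trend gave log2 fold changes of 0.77 for Naca (adjusted p = 0.0397 in edgeR) and 0.54 for Tpt1 (adjusted p = 0.135 in edgeR). That correction treats Naca as a gene of 6805 bases. With the length of the first-numbered GENCODE transcript instead, which is 885 bases for Naca, Naca was 0.50 (adjusted p = 0.109 in edgeR) and Tpt1 0.49 (adjusted p = 0.151 in edgeR), both short of the threshold. The part of gene length in the measured differences was not tested beyond these corrections.

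**Figure D4:**
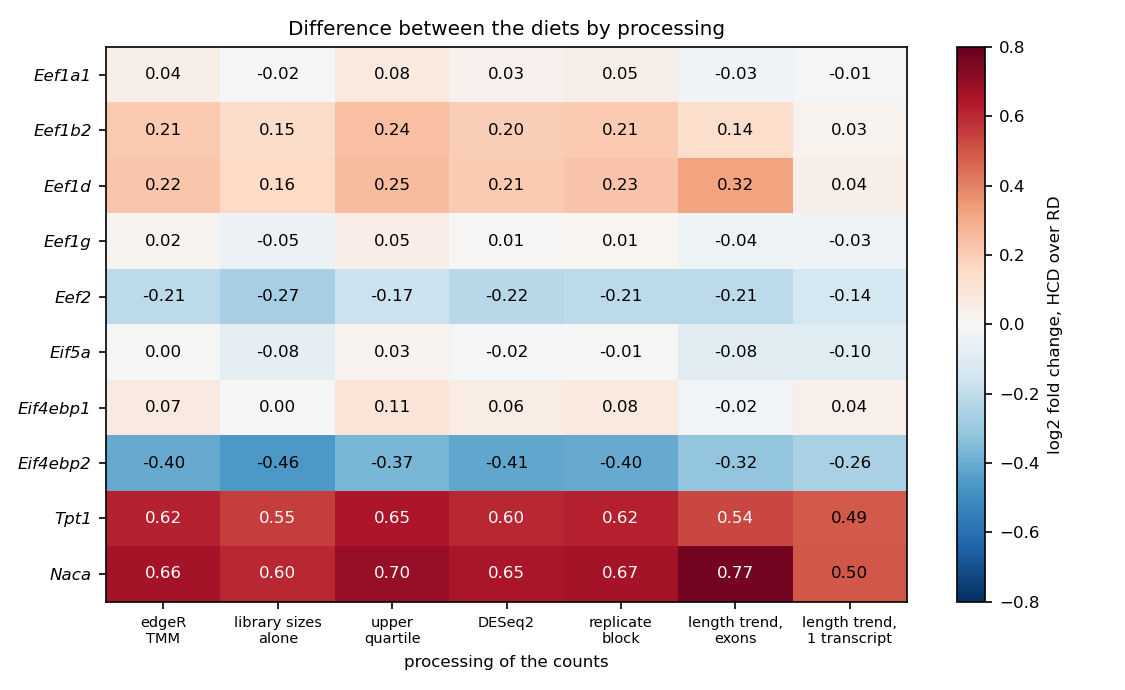
Log2 fold change of HCD over RD (color and printed value) for the 10 genes (vertical) under 7 ways of processing the same counts (horizontal). Naca and Tpt1 stay at 0.49 or more and Eif4ebp2 at -0.26 or less in every column, Eef2 stays below 0, and Eef1a1, Eef1g, Eif5a and Eif4ebp1 change sign. The last columns correct for length by summed exons and by the first-numbered transcript.

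Among the enzymes that modify the elongation factors, 15 were tested, 7 above 0 and 8 below, and 1 was called, beside 50.7% above 0 and 3.27% called among all genes tested. With an unadjusted p of at most 0.05 in edgeR, 1 was higher and 1 lower, beside 11.1% and 9.81% of all genes tested. The lower one was Dph2, at 4.47 ± 1.35 CPM on RD and 2.22 ± 0.529 on HCD (log2 fold change -1.01, adjusted p = 0.175 in edgeR). Dhps, the first enzyme of hypusine formation on eIF5A, was at 8.11, 9.27 and 6.94 CPM on RD and at 12.7, 16.5 and 21.7 CPM on HCD. Every HCD liver was above every RD liver, and Dhps rose by 1.07 on the log2 scale (standard error 0.23), with an adjusted p of 0.0488 in edgeR. The call held without HCD replicate 1 (log2 fold change 1.24, adjusted p = 0.0341 in edgeR) and was lost without RD replicate 1, 2 or 3 (adjusted p = 0.174, 0.134 and 0.118 in edgeR) and without HCD replicate 2 or 3 (adjusted p = 0.0841 and 0.117 in edgeR). It was also lost with RLE factors, library sizes alone, both limma-trend fits, protein-coding genes only, the replicate number as a block and both length corrections, where the adjusted p from edgeR or limma lay between 0.0502 and 0.102. Dohh, the next enzyme of that pathway, was at 0.21 (adjusted p = 0.652 in edgeR), and Eef2k, the kinase that inactivates eEF2, was at -0.074 (adjusted p = 0.890 in edgeR). Neither of the 2 other elongation genes tested was called. Among them Eefsec, the selenocysteine-specific factor, named here after its value was seen, was at 29.0 ± 1.67 CPM on RD and 37.7 ± 2.82 on HCD (log2 fold change 0.38, adjusted p = 0.148 in edgeR). The other, Eef1e1, was lower, at 9.40 ± 1.16 CPM on RD and 7.08 ± 0.537 on HCD (log2 fold change -0.41, adjusted p = 0.296 in edgeR). For both genes the diets did not overlap. Eif5a2 was too low to test, at 0.346 ± 0.313 CPM on RD and 0.366 ± 0.384 on HCD, and Eef1a2 was not analysed here.

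Of 24 genes of mTORC1 signaling and cap binding, 9 were above 0 and 15 below (median -0.046), and edgeR called none, with 3 higher and 2 lower with an unadjusted p of at most 0.05, beside 20.9% of all genes tested in both directions. Mtor, the kinase itself, was at 45.2, 50.03 and 44.0 CPM on RD and at 31.0, 35.7 and 27.2 CPM on HCD. The diets did not overlap, and the log2 fold change was -0.57 (standard error 0.15, adjusted p = 0.0759 with edgeR and 0.0426 with DESeq2), and -0.56 without HCD replicate 1. Larp1, whose protein binds the cap and the TOP run, was at 201.05 ± 6.31 CPM (SD, n = 3) on RD and 160 ± 18.2 on HCD (log2 fold change -0.33, adjusted p = 0.220 in edgeR, and -0.42 without HCD replicate 1), and Eif4e was at 0.14 (adjusted p = 0.735 in edgeR). DESeq2 called 2 of the 24, beside 6.97% of all genes it tested. Besides Mtor this was Sesn2, a stress-induced inhibitor of mTORC1, named after its value was seen (log2 fold change 1.09, adjusted p = 0.0560 with edgeR and 0.00862 with DESeq2), which was at 1.04 without HCD replicate 1. Akt1s1 was also higher with an unadjusted p of at most 0.05 (log2 fold change 0.48, adjusted p = 0.0788 in edgeR). So was Rragc (log2 fold change 0.42, adjusted p = 0.143 in edgeR).

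The mRNAs of the cytosolic ribosomal proteins, which are the largest class of TOP mRNAs, were mostly above 0. Of 77 tested, 70 were above 0 and 7 below, with a median log2 fold change of 0.36 (0.26 after the correction by summed exon length), and 13 were called higher and none lower, beside 1.95% and 1.32% of all genes. None was lower with an unadjusted p of at most 0.05 or with DESeq2. The largest called rises were those of Rpl38 (1.29), Rpl34 (1.10) and Rplp2 (0.99). With 1 liver left out, edgeR called 0 (RD replicate 1), 1 (RD replicate 2), 4 (RD replicate 3), 10 (HCD replicate 1), 13 (HCD replicate 2) and 5 (HCD replicate 3) of them, while the length corrections by summed exons and by the first-numbered transcript left 7 and 3, the replicate number as a block left 4, and DESeq2 called 27. Many ribosomal protein genes have processed copies, and reads shared with them were not examined here. The median deviation of these genes from the mean of the 6 livers was -0.16, -0.30 and -0.13 on RD and 0.33, 0.12 and 0.18 on HCD on the log2 scale. Naca and Tpt1 were also lowest in RD replicate 2 of all livers.

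Other TOP mRNAs, outside the ribosome and the 10 genes, lay on both sides of 0. Of 10 tested, 6 were above 0 and 4 below, with a median of 0.12, and edgeR called none, with 2 higher with an unadjusted p of at most 0.05 (11.1% of all genes tested) and none called by DESeq2. Pabpc1, the poly(A)-binding protein, was at -0.086 (adjusted p = 0.755 in edgeR). The 23 initiation factors had a median of -0.063, with 11 above 0 and 12 below. The 3 genes of termination and recycling were all below 0 (median -0.30), and the 5 mitochondrial elongation genes had a median of -0.017. In these last 3 lists edgeR and DESeq2 called none, and with an unadjusted p of at most 0.05 in edgeR 1 initiation factor was higher, 1 termination gene was lower, and 1 mitochondrial gene was higher and 1 lower, beside 11.1% higher and 9.81% lower among all genes tested.

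**Figure D5:**
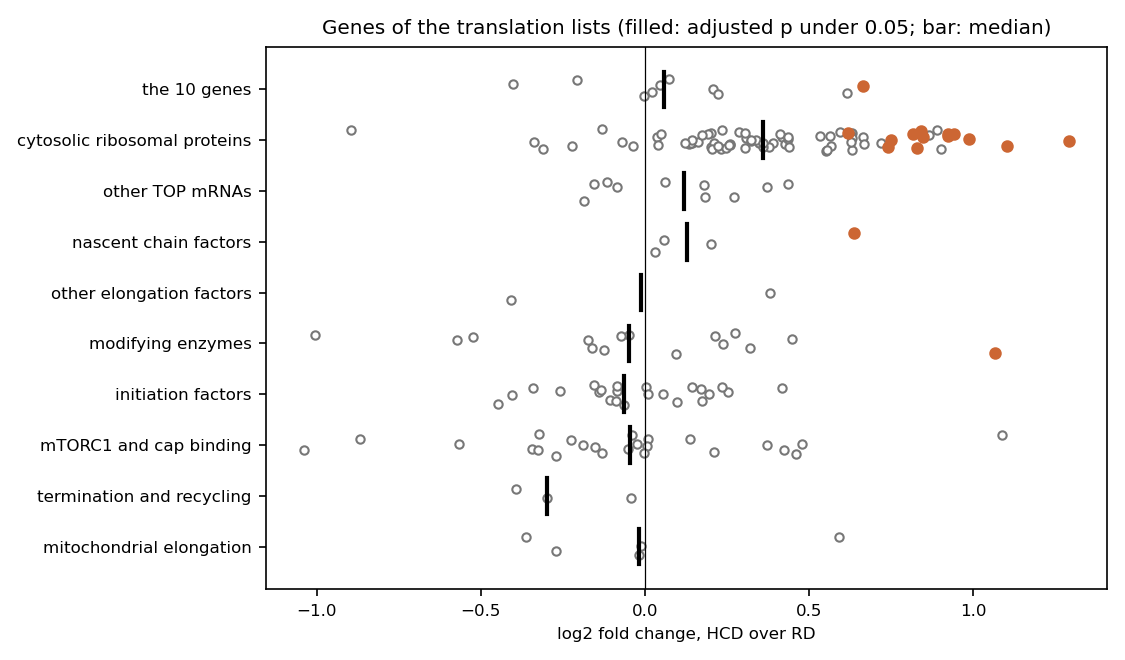
Log2 fold change of HCD over RD from edgeR (horizontal axis) for every tested gene of 10 lists of translation genes (vertical), with filled orange points past an adjusted p of 0.05 and a black bar at each median. Called genes lie among the ribosomal proteins (13), the nascent chain factors (Btf3), the modifying enzymes (Dhps) and the 10 genes (Naca), and the ribosomal proteins have the highest median (0.36).

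Markers of other liver cells lay mostly on the same side of 0 as Naca, Tpt1, Btf3 and the ribosomal proteins. The 10 Kupffer cell markers were all above 0, summing to 168 to 276 CPM on RD and 229 to 503 on HCD, and the 8 stellate cell markers were all above 0, summing to 205 to 222 CPM and 221 to 350. Endothelial markers (6 of 8 above 0) summed to 114 to 189 CPM on RD and 142 to 214 on HCD, and cholangiocyte markers (4 of 5 above 0) to 37.3 to 91.8 and 64.3 to 98.0. The 4 leukocyte markers tested were all above 0, summing over the list to 7.20 to 12.3 CPM on RD and 10.3 to 16.7 on HCD. edgeR called none of these markers, where 5 Kupffer, 2 stellate and 2 endothelial ones were higher with an unadjusted p of at most 0.05 and DESeq2 called 4, 0 and 1, beside 11.1% and 3.88% of all genes tested. Of the 5 red cell markers tested 2 were called higher, beside 1.95% of all genes tested, with sums of 138 to 239 CPM on RD and 176 to 467 on HCD. Of the exocrine pancreas markers Cela1 alone was analysed, at 19.9 to 26.1 CPM on RD and 7.29 to 22.8 on HCD. No marker analysed was at 0 in all 6 livers, and the part of these cells in the results for the 10 genes was not tested.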

How the data were processed

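RNA was isolated with the RNeasy Kit and sequenced by Novogene in 1 library per liver, with 3 livers per diet. The counts of reads on each gene that the authors deposited are whole numbers and carry no scaling. The authors also deposited FPKM, scaled by summed exon length and by a total that is not stated. Lengths implied by the count and FPKM of a gene match the exon lengths of GENCODE M21 to within 0.1% for 95.1% to 95.3% of genes with at least 10 counts. The submitters' processing notes name STAR, HTSeq, DESeq2, edgeR and GRCm39, without a role for each. Positions here are from M21 on GRCm38, which holds 20666 of the 20673 identifiers. Columns of log2 fold changes and of p-values for the diets, as deposited by the authors, were not used.

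The main test was edgeR 4.0.16 in R 4.3.3. filterByExpr by diet left 13105 genes, TMM factors (0.886 to 1.07) scaled the libraries, and glmQLFit and glmQLFTest compared HCD with RD with no covariate. p-values were adjusted by the Benjamini-Hochberg method over the 13105 genes, at a threshold of 0.05. The biological coefficient of variation was 27.8%. CPM are TMM-scaled. Alternatives covered the test (DESeq2 1.42.0, or limma-trend from limma 3.58.1 with FPKM on the log2 scale after adding 1 or 0.1), the scaling (RLE, upper-quartile factors, or none), the genes kept (every gene with a count, those with a mean of at least 50 counts, or protein-coding ones), the replicate number as a block, each liver left out in turn, the threshold, the addition of named pseudogene copies, and a length correction. That correction fitted a loess curve (span 0.5, degree 1) to the deviation of a library by log2 exon length and used it as an offset. Chosen after seeing the data were copies found with minimap2 2.31-r1302, the length of the transcript numbered first in GENCODE, the search in 50 bases after RefSeq starts and the 12 ratios. Exact permutation tests enumerated 20 assignments of livers and were two-sided, with a smallest p of 0.10. Confidence limits are at 95%. The limit for a count of 0 covers counting error only. The edgeR steps were tested on simulated data. Tables and figures were made with Python 3.11.15 and matplotlib 3.10.9.

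The 10 genes and all gene lists were chosen with earlier results of these data known. Named are the 10 genes, the called genes of each list (at most 3 rises and 3 falls by size), fixed partner genes whatever their values, the most abundant marker of a list and the most abundant copy of a gene. Outside these rules, Eefsec, Eef1e1, Dph2, Sesn2, Akt1s1 and Rragc were named after their values were seen. The start sequences of the other 3 genes with a TOP-like run are not reported here.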

Additional observations from a re-analysis of the deposited data

How the results depend on the processing

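Eef1b2, Eef1d, Eef2, Eif4ebp2, Tpt1 and Naca kept their direction under every alternative run. The sign turned for 4 genes whose values were near 0. Eef1a1 was -0.018 with library sizes alone, -0.026 with the length correction by summed exons, -0.013 with that by the first-numbered transcript, and -0.0016 to 0.10 with 1 liver left out. Eef1g was -0.048, -0.040 and -0.027 in the first 3 of these settings and -0.065 to 0.11 in the last. Eif5a was 0.029 with upper-quartile factors, 0.013 with a mean of at least 50 counts, 0.018 with both limma-trend fits, 0.0033 with protein-coding genes only, and -0.097 to 0.048 with 1 liver left out. Eif4ebp1 was -0.024 with the correction by summed exons and -0.0088 to 0.14 with 1 liver left out. The causes were not tested.

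Naca lost its call with library sizes alone (0.60, adjusted p = 0.0770 in edgeR) and with the first-numbered transcript (0.50), and with 1 liver left out it ranged from 0.60 to 0.73. Tpt1 passed the threshold with DESeq2 alone (0.60). Of the 10 genes, 0 were called with library sizes alone, with the first-numbered transcript and at an adjusted p under 0.01, 2 with DESeq2, 3 with an unadjusted p of at most 0.05, and 0 to 1 with 1 liver left out. Of all genes tested, 649 were called with no filter on low counts, 992 with DESeq2, 251 and 217 with the length corrections by summed exons and first-numbered transcript, 2739 with an unadjusted p of at most 0.05, 40 at an adjusted p under 0.01, and 39 to 387 with 1 liver left out, beside 428. With library sizes alone 158 were higher and 161 lower, beside 255 and 173 with TMM. Over all translation lists together 15 were called, against 31 with DESeq2, 7 and 3 with the length corrections, and 0 to 14 with 1 liver left out. The share of RefSeq starts with a run was 18.35% within 5 bases and 51.27% anywhere in the 50 bases after the start, against 2.51%.

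With the replicate number as a block, 136 genes were called, 0 of the 10 genes (Naca 0.67, adjusted p = 0.0716 in edgeR) and 4 of the translation lists. Livers of the same number had correlations of -0.076, 0.088 and -0.041 between their deviations from the diet means, so the numbers were not taken as pairs. Eif5a2 and Eif4ebp3 are limited by depth.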
